A study of Mus musculus with 14 samples.

Results

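The genes described here are 9 members of the Scn family that encode voltage-gated sodium channels of neurons: Scn1a, Scn3a, Scn8a, Scn9a, Scn10a and Scn11a, which encode pore-forming alpha subunits, and Scn2b, Scn3b and Scn4b, which encode auxiliary beta subunits. They were chosen by gene symbol, and all 9 were found among the 24062 genes of the deposited count table. RNA-seq had been carried out on whole tissue from 14 mice that were 9 months old and on a mixed C57BL/6, I-129 and FVBN background, none of which received a drug. Control libraries (DRG3, DRG4 and DRG5, n = 3) came from dorsal root ganglia (DRGs) with nerve of Nf1fl/fl mice, whose floxed Nf1 alleles are intact. The other 11 libraries came from plexiform neurofibromas (PNs) of Dhh-Cre;Nf1fl/fl mice, in which the desert hedgehog promoter drives Cre in the Schwann cell (SC) lineage, so that neurons are not the cells meant to lose Nf1. PNs were slow growing (n = 5, libraries 1079, 1198A, 1202, 1203 and 1206) if their volume on MRI changed by less than 5 mm3 over 2 months, and fast growing (n = 6, libraries 1053, 1071, 1179, 1191, 1214 and 1216) if it rose by more than 35 mm3.

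A voltage-gated sodium channel opens when the membrane depolarizes and carries the inward current of the action potential. Each channel has 1 alpha subunit, which forms the pore and senses voltage, and beta subunits, which are single-pass membrane proteins that alter gating and surface level and also act as adhesion molecules. In sensory neurons of the DRG the alpha subunits fall into channels that the toxin tetrodotoxin (TTX) blocks, namely those of Scn1a (Nav1.1), Scn3a (Nav1.3), Scn8a (Nav1.6) and Scn9a (Nav1.7), and channels that resist it, namely those of Scn10a (Nav1.8) and Scn11a (Nav1.9), which are known from nociceptors. Because the tissue was measured whole, fewer cells of a type and less RNA per cell cannot be told apart in any value below.

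Several of these genes lie side by side. In the GRCm38 (mm10) annotation, Scn10a (chr9:119608456-119719322) and Scn11a (chr9:119753759-119825456) are both on the minus strand and are separated by 34436 bases. Scn2b (chr9:45117782-45130070) and Scn4b (chr9:45138395-45154152) are both on the plus strand, with 8324 bases between them. Scn3b is also on chromosome 9 (40269217 to 40291618, plus strand), Scn1a (66270778 to 66440840), Scn9a (66480080 to 66634962) and Scn3a (65457118 to 65567627) are on the minus strand of chromosome 2, and Scn8a is on the plus strand of chromosome 15 (100869858 to 101045938). Promoter windows, from 250 bases before to 50 bases after a start site, were found for 7 of the 9 members in RefSeq (GRCm38.p6), and Scn3a and Scn3b had no entry. Scn1a and Scn9a are neighbours too, with 39239 bases between them. The windows of the pairs on chromosome 9 are shown because the members of each pair are set against each other below, with every CG dinucleotide in capitals, as regions chr9:45117626-45117925 (plus), chr9:45138374-45138673 (plus), chr9:119718983-119719282 (minus) and chr9:119825407-119825706 (minus).
Scn2b: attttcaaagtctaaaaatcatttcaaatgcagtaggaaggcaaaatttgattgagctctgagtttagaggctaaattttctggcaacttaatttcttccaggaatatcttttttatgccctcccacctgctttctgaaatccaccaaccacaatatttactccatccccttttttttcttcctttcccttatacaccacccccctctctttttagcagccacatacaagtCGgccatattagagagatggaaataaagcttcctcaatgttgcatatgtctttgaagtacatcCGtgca
Scn4b: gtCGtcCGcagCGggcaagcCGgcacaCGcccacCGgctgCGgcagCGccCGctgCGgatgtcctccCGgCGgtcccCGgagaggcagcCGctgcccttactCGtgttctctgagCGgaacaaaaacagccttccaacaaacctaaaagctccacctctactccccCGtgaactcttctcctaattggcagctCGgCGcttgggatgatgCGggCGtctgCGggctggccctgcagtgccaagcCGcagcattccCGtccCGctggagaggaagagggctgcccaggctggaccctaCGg
Scn10a: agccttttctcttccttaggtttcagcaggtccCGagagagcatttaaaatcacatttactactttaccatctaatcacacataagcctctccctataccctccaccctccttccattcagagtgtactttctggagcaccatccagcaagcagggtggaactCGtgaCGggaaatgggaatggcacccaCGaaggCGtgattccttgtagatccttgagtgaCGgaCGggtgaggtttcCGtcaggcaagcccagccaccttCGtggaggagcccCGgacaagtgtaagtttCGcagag
Scn11a: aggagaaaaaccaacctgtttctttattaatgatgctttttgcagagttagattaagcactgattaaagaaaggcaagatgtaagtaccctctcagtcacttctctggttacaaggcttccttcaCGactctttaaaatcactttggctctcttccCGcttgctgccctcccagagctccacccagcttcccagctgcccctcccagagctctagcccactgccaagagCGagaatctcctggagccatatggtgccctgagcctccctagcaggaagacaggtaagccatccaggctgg
The window of Scn2b held 2 CG dinucleotides and that of Scn4b held 26. Of all 32851 windows, 85.9% held as many as Scn2b or more, and 16.9% held as many as Scn4b or more. The window of Scn10a held 11 CG dinucleotides and that of Scn11a held 3. Both strands were searched for the TATA box (TATAAA), the GC box (GGGCGG) and the CCAAT box (CCAAT), none of which contains another. The 4 windows held a single match, to the CCAAT box in the window of Scn4b. Over all windows 13.6% held the TATA box, 35.7% the GC box and 37.4% the CCAAT box. A match is a description of the letters and not a binding site. The RefSeq start sites need not be the gene ends given above. The window of Scn10a lies wholly inside the span given for its gene, and that of Scn4b lies mostly inside its own.

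Library totals ran from 9596770 to 17594200 counts, and levels below are in CPM, counts scaled to a common library total. Nf1 itself was not below the controls in PNs: it was at 227, 152 and 129 CPM in controls and at 225 to 294 CPM in the 11 PNs (log2 fold change 0.54, SE 0.16, edgeR adjusted p = 0.0215), and counts over the whole gene do not show whether the floxed exons are present, so they check no genotype. The pan-neuronal score, the mean log2(CPM + 1) of 18 genes used by most neurons, was 7.35, 6.32 and 5.72 in controls and 6.10 to 8.73 in 10 of the PNs, so neuronal RNA was present in both tissues. Fast-growing PN 1191 stood apart with a score of 1.41. All 18 of the pan-neuronal genes were lower in 1191 than in any other PN, and 9 of them were under 1 CPM there. Their summed level was 54.1 CPM in 1191, against 2647 to 8466 CPM in the other fast-growing PNs, 2999 to 15244 CPM in slow-growing PNs and 1863 to 6642 CPM in controls. Calls that change without 1191 are given both ways. The controls in turn held more skeletal muscle and fat RNA: the summed level of 12 muscle genes was 3611 to 14763 CPM in controls against 17.96 to 3444 CPM in PNs, and that of 11 fat genes was 4179 to 6266 CPM in controls against 20.5 to 3471 CPM in PNs. The part of these tissues in the results below was not tested beyond the fits with their scores as covariates.

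The first comparison asks whether neuronal sodium channel mRNA differs between PNs and normal DRGs with nerve. In edgeR's quasi-likelihood fit, at a threshold of 0.05 on the p adjusted over all genes tested (Benjamini-Hochberg), 1 of the 9 members passed: Scn2b, which was higher in PNs. Over all 16283 genes tested, 26.3% passed in either direction, and 12.9% were higher. The median log2 fold change of the members was 1.09, against 0.10 over all genes tested, and 8 of the 9 values were positive, Scn4b being the exception, although limma-trend also gave values below 0 for Scn1a, Scn3a and Scn8a. All 9 members passed the filter on low counts in each comparison. Against controls, slow-growing PNs had 0 of 9 members past the threshold, where 11.3% of 15714 genes passed (4.12% higher and 7.13% lower). At an unadjusted p under 0.05 there were 3 members, Scn10a, Scn2b and Scn3b, the same 3 that passed by DESeq2 after adjustment. The share of all genes at an unadjusted p under 0.05 was not counted here or below. Numbers at that threshold therefore have no background to be judged against. Over all genes DESeq2 called 3529 in this comparison, against 1769 by edgeR. Of the members limma-trend on the deposited log2 values called 0. Fast-growing PNs had 1 of 9, again Scn2b, where 31.4% of 16037 genes passed and 14.8% were higher. There the values of Scn1a (-0.18), Scn3a (-0.17), Scn8a (-0.36) and Scn4b (-0.78) were negative and those of the other members positive. These comparisons share the 3 control libraries.

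**Figure D1:**
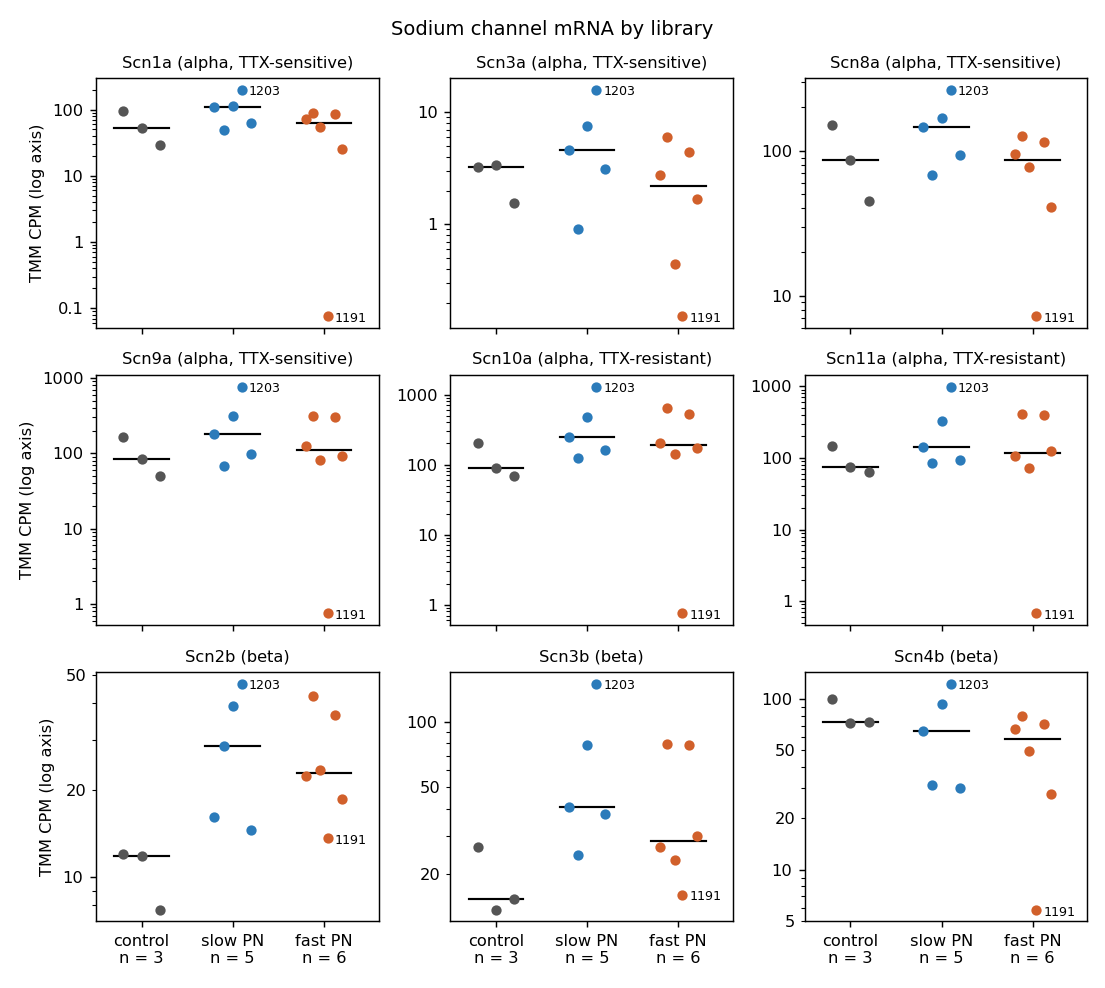
Level of each of the 9 members in each library, as CPM after trimmed-mean scaling on a log axis, by group (control n = 3, slow PN n = 5, fast PN n = 6). Points are libraries and black lines are group medians. Library 1191 is the lowest fast-growing PN for every member, 1203 is the highest PN for every member, and only for Scn2b do all PNs lie above all controls.

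Of the TTX-sensitive alpha subunits, Scn9a encodes Nav1.7, a channel of nociceptive and sympathetic neurons whose loss in people causes insensitivity to pain. Scn9a was at 162, 83.7 and 49.9 CPM in controls DRG3, DRG4 and DRG5, and at 181, 68.8, 309.95, 767 and 96.6 CPM in slow-growing PNs 1079, 1198A, 1202, 1203 and 1206, an order kept for every gene below. In fast-growing PNs the lowest value was 0.76, the median 109.6 and the highest 313 CPM. The groups overlapped, with 5 of the 11 PNs above every control and 1 PN, 1191, below. The log2 fold change of PNs over controls was 1.09 (SE 1.05) and did not pass (edgeR adjusted p = 0.471), nor did it without 1191 (1.19, SE 0.71, adjusted p = 0.224) or without 1203 (0.65, SE 0.93, adjusted p = 0.636). Exons of Scn9a share 180 bases with an antisense gene, Gm13629, and the counting is not stated to use strand, so reads there cannot be assigned to 1 of the 2 genes.

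Scn8a encodes Nav1.6, the main sodium channel of mature nodes of Ranvier. It was at 151, 86.9 and 45.3 CPM in controls and at 147, 68.2, 168, 265 and 93.4 CPM in slow-growing PNs. Fast-growing PNs ran from 7.18 CPM through a median of 86.4 to 127 CPM, and none was above the highest control. The fold changes were 0.59 (SE 0.49) on the log2 scale for slow-growing PNs and -0.36 (SE 0.68) for fast-growing PNs, each within the spread between libraries (edgeR adjusted p = 0.428 and 0.730). Without 1191 the latter was -0.12 (SE 0.41, adjusted p = 0.843). On leaving out each library in turn, the value for slow-growing PNs ran from 0.26 to 1.09.

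Scn1a encodes Nav1.1, a channel of large myelinated sensory neurons and of interneurons in the brain. Its levels were 94.1, 53.5 and 28.9 CPM in controls, 109, 48.8, 115, 199 and 63.5 CPM in slow-growing PNs, and 0.08 to 88.2 CPM in fast-growing PNs (median 63.4). Slow-growing PNs overlapped the controls, and no fast-growing PN was above the highest control. The level of Scn1a lay near that of Scn8a in 13 of 14 libraries: per kilobase of transcript, the ratio of Scn1a to Scn8a was 0.84 to 0.87 in controls and 0.93 to 1.04 in 9 PNs, all above every control, while 1216 was at 0.84 and 1191 at 0.014. Scn1a did not pass in PNs against controls (log2 fold change 0.40, SE 0.91, edgeR adjusted p = 0.780), and the value lay within the spread of the libraries with or without 1191 (0.50, SE 0.48, adjusted p = 0.456 without it). It was 0.16 without 1203 and 0.07 without DRG5, and on leaving out each library in turn it reached at most 0.91.

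Scn3a encodes Nav1.3, which is prominent in embryonic neurons and returns in injured adult sensory neurons. It was the lowest of the members, at 3.26, 3.39 and 1.56 CPM in controls and at 4.56, 0.90, 7.46, 15.8 and 3.08 CPM in slow-growing PNs. Fast-growing PNs held 0.15 to 6.01 CPM (median 2.21). The groups overlapped in both directions, with 5 PNs above every control and 3 below. Counts behind these values were as low as 2 (in 1191) and 6 (in 1179). The log2 fold change was 0.62 (SE 0.93, edgeR adjusted p = 0.656), so no difference was detectable against the spread between libraries. Without 1203 the value was 0.17 and without DRG5 it was 0.35.

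The TTX-resistant channels of nociceptors had the highest mean levels of the alpha subunits, per kilobase of transcript, in every group. Scn10a encodes Nav1.8, which carries most of the current of the upstroke in small-diameter sensory neurons. It was at 200.2, 88.1 and 69.6 CPM in controls and at 249.1, 125.4, 476, 1294 and 160.1 CPM in slow-growing PNs. In fast-growing PNs it ran from 0.76 CPM through a median of 189.7 to 646 CPM. Above every control were 6 of the 11 PNs, while 4 lay among the controls and 1191 was below them. The log2 fold change of PNs over controls was 1.59 (SE 1.13, edgeR adjusted p = 0.322). Without 1191 it was 1.69 (SE 0.73, adjusted p = 0.104), and without the highest library, 1203, it was 1.16 (SE 1.013, adjusted p = 0.420).

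Scn11a encodes Nav1.9, a channel with a persistent current near the resting potential. It was at 146, 73.9 and 62.7 CPM in controls, at 143, 85.2, 332, 989 and 92.9 CPM in slow-growing PNs, and at 0.68 to 412 CPM in fast-growing PNs (median 116). Of the 11 PNs, 4 exceeded all 3 controls. The log2 fold change was 1.39 (SE 1.14, edgeR adjusted p = 0.390; without 1191 1.49, SE 0.79, adjusted p = 0.179; without 1203 0.89, SE 0.99, adjusted p = 0.535), within the spread between libraries. Among the 10 PNs other than 1191 the highest level of Scn10a was 10.3 times the lowest, and that of Scn11a was 13.5 times the lowest.

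In PNs against controls the edgeR values of the beta subunits were positive for Scn2b and Scn3b and negative for Scn4b. Only that of Scn2b passed there. Scn2b encodes beta-2, which is linked to the alpha subunit by a disulfide bond and promotes its surface expression. Scn2b was at 12.1, 11.8 and 7.71 CPM in controls and at 16.2, 28.4, 39.2, 46.9 and 14.6 CPM in slow-growing PNs. Fast-growing PNs held 13.7 to 42.3 CPM (median 23.0). All 11 PNs were above all 3 controls, including 1191, the lowest PN at 13.7 CPM. Groups that do not overlap in either direction were found for 17.6% of all genes tested, with PNs higher for 8.51% and lower for 9.13%. Among slow- and fast-growing PNs against controls the shares in either direction were 23.5% and 32.7%, and Scn2b was the only member without overlap in these comparisons too. Scn2b rose 2.57-fold in PNs (log2 fold change 1.36, SE 0.40, edgeR adjusted p = 0.0221) and 2.35-fold in fast-growing PNs (1.24, SE 0.35, adjusted p = 0.0234). In slow-growing PNs the log2 fold change was 1.39 (SE 0.42) with an adjusted p of 0.0687. The call rested on few controls: the edgeR adjusted p for PNs against controls was 0.0683 without DRG4 and 0.125 without DRG5, with log2 fold changes of 1.45 and 1.18. For fast-growing PNs it was 0.0596 and 0.103, with log2 fold changes of 1.33 and 1.11. Calls over all genes in PNs against controls fell as well, from 4283 to 2476 without DRG4 and to 2061 without DRG5. With the muscle and fat scores as covariates the log2 fold change was 1.70 and did not pass (adjusted p = 0.144).

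Scn3b encodes beta-3, which lacks the disulfide bond and is found with Nav1.8 and Nav1.7 in sensory neurons. It was at 26.5, 13.7 and 15.4 CPM in controls, at 40.5, 24.6, 77.9, 150.1 and 37.6 CPM in slow-growing PNs, and at 16.1 to 78.9 CPM in fast-growing PNs (median 28.2). Of the 11 PNs, 8 exceeded all 3 controls and none was below them. The log2 fold change of 1.499 (SE 0.63) did not pass in edgeR (adjusted p = 0.0936), and it passed in DESeq2 (1.45, adjusted p = 0.0359).

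Scn4b encodes beta-4, which is disulfide-linked to the pore like beta-2 and is the source of the blocking particle of resurgent current. Scn4b was at 99.98, 72.5 and 73.4 CPM in controls, at 65.1, 31.6, 93.9, 123 and 29.98 CPM in slow-growing PNs, and at 5.82 to 79.8 CPM in fast-growing PNs (median 58.3). In contrast to the other members, 8 of 11 PNs were below every control, and the only PN above them was 1203. The log2 fold change was -0.50 (SE 0.55, edgeR adjusted p = 0.528) and lay within the spread between libraries.

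**Figure D2:**
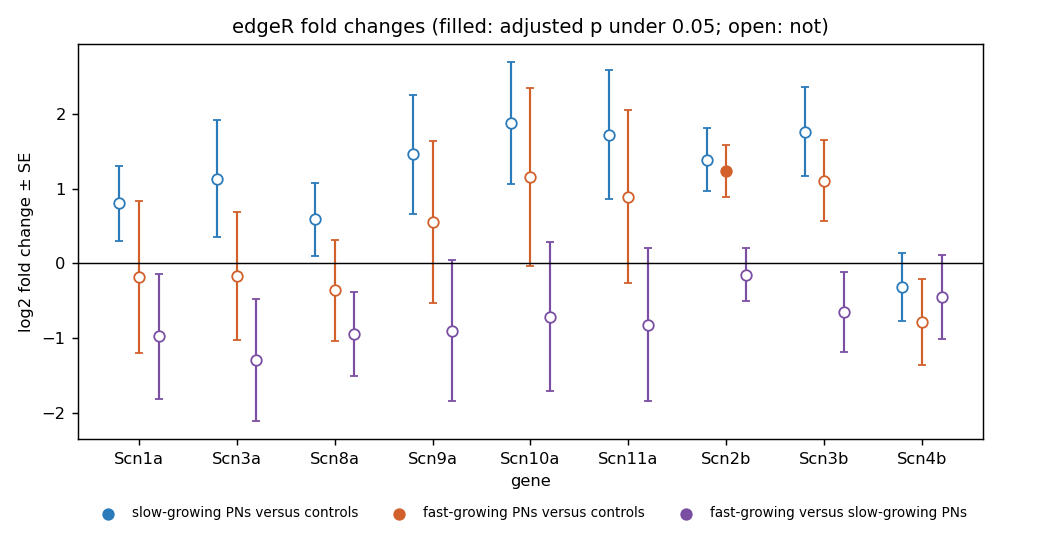
Log2 fold change of each member in 3 comparisons fitted with edgeR, with bars of 1 SE. Filled points have an adjusted p under 0.05. Scn2b in fast-growing PNs against controls is the only filled point, at 1.24, and all 9 values of fast- against slow-growing PNs lie below 0 and are open.

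The last comparison asks whether the channels differ with PN growth. Between fast- and slow-growing PNs 0 of 9 members passed in edgeR, where 1.27% of 15465 genes passed and 0.466% were lower. Of the members 0 had an unadjusted p under 0.05, and DESeq2 and limma-trend also called 0. No member had groups that do not overlap, where 3.04% of genes did (2.13% with fast-growing PNs higher). All 9 fold changes were below 0, with a median of -0.82 against -0.03 over all genes tested. They ran from -0.15 (SE 0.36) for Scn2b to -1.30 (SE 0.82) for Scn3a. Without 1191 the 9 values were still negative, from -0.02 (Scn2b) to -1.05 (Scn3a), and without slow-growing PN 1203 the other 6 were still negative while those of Scn10a, Scn11a and Scn2b became positive at 0.15, 0.18 and 0.088, as did those of Scn9a, Scn10a, Scn11a, Scn2b and Scn4b with the pan-neuronal score as a covariate. The 18 pan-neuronal genes also had 18 negative values, with a median of -0.72, and none passed the test. Without 1191 their median was -0.45, with 17 of 18 negative. Their score averaged 7.27 ± 1.06 over the slow-growing group against 6.08 ± 2.37 over the fast-growing group (SD, n = 5 and 6). Without 1191 the latter was 7.01 ± 0.70, so most of the gap lay in that library.

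Levels of different genes were compared per kilobase of the longest annotated transcript (CPM per kb), as a description. In controls the mean level per kb was 17.8 ± 10.6 for Scn10a, 16.0 ± 7.70 for Scn11a, 10.02 ± 5.85 for Scn9a, 8.26 ± 4.66 for Scn8a, 7.01 ± 3.93 for Scn1a and 0.29 ± 0.11 for Scn3a (SD, n = 3). The SDs of neighbours in this order overlap except between Scn1a and Scn3a. Within single libraries the order was steadier than these SDs: Scn10a was above Scn9a in 14 of 14 libraries, above Scn8a in 13 and above Scn11a in 12, the exceptions for Scn11a being DRG5 and 1191. In 1191 Scn8a was the highest alpha subunit gene. The position of Scn8a against Scn1a was not stable, with Scn8a higher in 10 of 14 libraries.

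Scn10a had a larger share of the alpha subunit mRNA in 10 of the 11 PNs than in any control. Of the summed level per kb of the 6 alpha subunit genes, it made up 27.1% to 31.2% in the 3 controls and 35.05% to 43.8% in the 10 PNs other than 1191, with no overlap, and 11.8% in 1191. The share of Scn11a did not separate the groups, at 25.8% to 31.6% in controls and 22.5% to 34.4% in those 10 PNs. Scn8a made up 11.8% to 15.6% in controls and 4.76% to 12.5% in those 10 PNs. The ratio of Scn10a to Scn8a per kb was 2.26, 1.73 and 2.62 in controls. It was 2.90, 3.14, 4.83, 8.34 and 2.93 in slow-growing PNs and 3.69, 8.72, 3.11, 0.18, 7.70 and 7.26 in fast-growing PNs 1053, 1071, 1179, 1191, 1214 and 1216. All PNs but 1191 were thus above every control. Both pairs of genes come from the same library, so a scaling factor cancels in these ratios. In all 9 ratios were computed, chosen after the levels had been seen, and they are given without a test. How often shares or ratios of other genes separate PNs from controls was not counted. Of single genes, 17.6% did so. Of those not printed here, Scn9a over Scn8a was above every control in 7 PNs, Scn11a over Scn8a in 5 and Scn3b over Scn8a in 8, and Scn11a over Scn10a was below every control in 8 PNs.

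**Figure D3:**
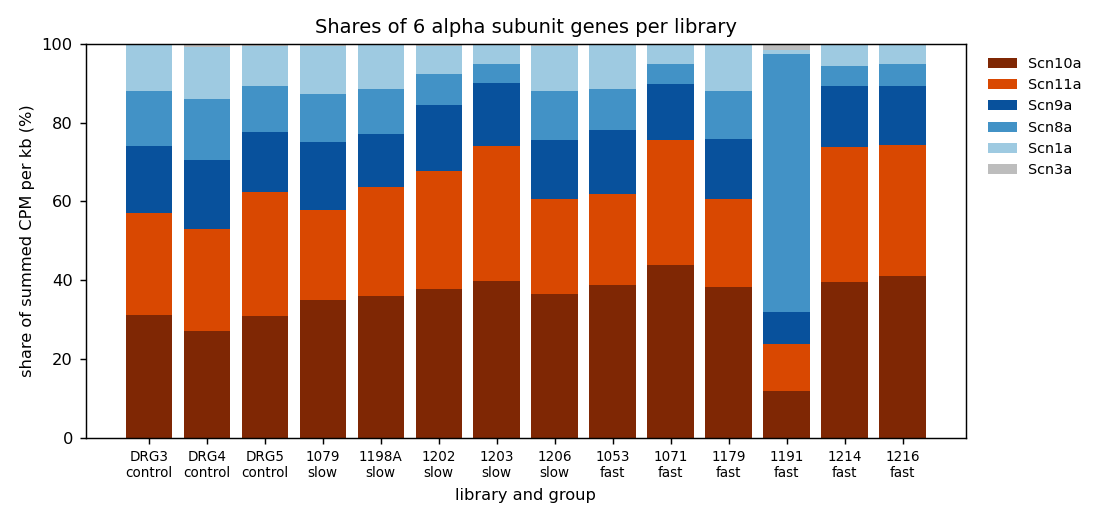
Share of each of the 6 alpha subunit genes in their summed level per kb (%), in each of the 14 libraries by group. Scn10a makes up 27.1% to 31.2% in controls, 35.05% or more in 10 PNs and 11.8% in 1191, where Scn8a makes up 65.6%.

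The order of the beta subunits varied among PNs, and 4 of 11 (1079, 1202, 1053 and 1179) had the order of the controls. In controls Scn4b had the highest level per kb of the 3 beta subunit genes described here, 16.4 ± 3.14, ahead of Scn3b at 4.46 ± 1.68 and Scn2b at 2.26 ± 0.53 (SD, n = 3). In PNs Scn3b was at 15.9 ± 12.3 in the slow-growing group and 10.2 ± 6.91 in the fast-growing group, beside Scn4b at 13.8 ± 8.09 and 10.1 ± 5.73 (SD, n = 5 and 6). Without 1191 the fast-growing means were 11.4 ± 6.91 for Scn3b and 11.9 ± 4.14 for Scn4b, and by medians Scn4b was above Scn3b in both groups (13.1 against 9.77 and 11.7 against 6.80). The ratio of Scn3b to Scn4b was 0.32, 0.23 and 0.25 in controls and 0.75, 0.94, 0.997, 1.46 and 1.51 in slow-growing PNs. In fast-growing PNs it was 0.48, 1.19, 0.56, 3.32, 1.32 and 1.29. Every PN was above every control, and the lowest PN, 1053, was at 0.48 against the highest control at 0.32. The ratio of Scn2b to Scn4b, the neighbouring pair on chromosome 9, likewise was 0.11 to 0.17 in controls and 0.27 to 2.52 in PNs, or 0.27 to 0.96 without 1191. Of the 14 libraries, 6 had more Scn3b than Scn4b, and all 6 were PNs.

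The ratio of Scn4b to Scn8a did not overlap between the growth groups. This ratio per kb was 1.52, 1.92 and 3.71 in controls. It was 1.02, 1.06, 1.28, 1.07 and 0.74 in slow-growing PNs and 1.43 to 1.86 in fast-growing PNs, so every fast-growing PN was above every slow-growing PN. In every other ratio computed the growth groups overlapped. As with those ratios, the separation is a description of values seen first and has no test. Of single genes tested, 3.04% had growth groups that do not overlap, and no such share was counted over ratios.

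**Figure D4:**
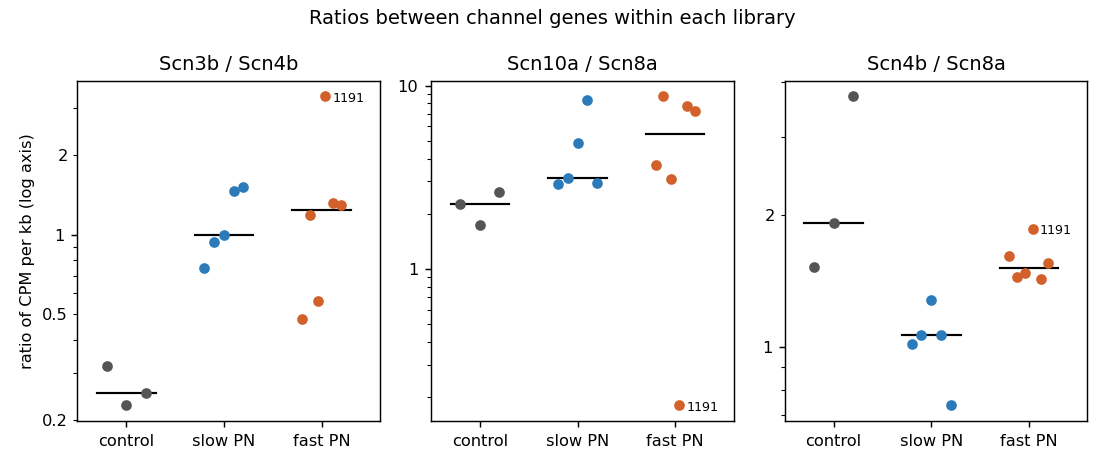
Ratios of CPM per kb between 2 channel genes of the same library, on log axes, by group, with group medians as lines. For Scn3b over Scn4b every PN (0.48 to 3.32) lies above every control (0.23 to 0.32); for Scn10a over Scn8a every PN but 1191 does so; for Scn4b over Scn8a slow-growing PNs (0.74 to 1.28) lie below fast-growing PNs (1.43 to 1.86).

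The members varied with the pan-neuronal score of a PN. Over the 10 PNs other than 1191, log2(CPM + 1) of Scn9a had a Pearson r of 0.99 and a Spearman rho of 0.99 with the pan-neuronal score (permutation p = 1e-05 for each, the smallest the 100000 resamples can give; Benjamini-Hochberg adjusted p = 0.00022 over 22 relations). Scn10a followed with r of 0.97 and rho of 0.95 (permutation adjusted p = 0.00022 and 0.00154), and Scn11a with r of 0.94 and rho of 0.89 (0.000733 and 0.00338). The lowest r among the alpha subunits was that of Scn1a, with r of 0.88 and rho of 0.93 (permutation adjusted p = 0.00162 and 0.00189). Leaving out the PNs with the most extreme scores, 1198A and 1203, r was 0.97 for Scn9a, 0.94 for Scn10a, 0.89 for Scn11a and 0.80 for Scn1a. Each growth group has only 5 of these libraries, and correlations within a growth group were not tested.

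Scn2b had the lowest r and rho with that score over these 10 PNs: r was 0.74 and rho 0.66 (permutation adjusted p = 0.0318 and 0.0604), and r was 0.80 without 1198A and 1203, where Scn1a was no higher. Between members, the 8 pairs that include Scn2b had r of 0.55 to 0.80 over the same 10 PNs, and the 28 other pairs had r of 0.74 to 0.996, the highest being Scn1a with Scn8a. Scn3b and Scn4b each had r of 0.94 with the score (permutation adjusted p = 0.00066 and 0.00033), with r of 0.87 and 0.90 without 1198A and 1203. The levels in these PNs therefore moved with the score of neuronal genes, and the muscle score moved with several of them too, with r of 0.78 for Scn4b (rho 0.73, permutation adjusted p = 0.0224 and 0.0362) and 0.39 for Scn2b (rho 0.38, adjusted p = 0.264 and 0.279; r of 0.82 and 0.69 without the 2 farthest libraries, 1079 and 1202).

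**Figure D5:**
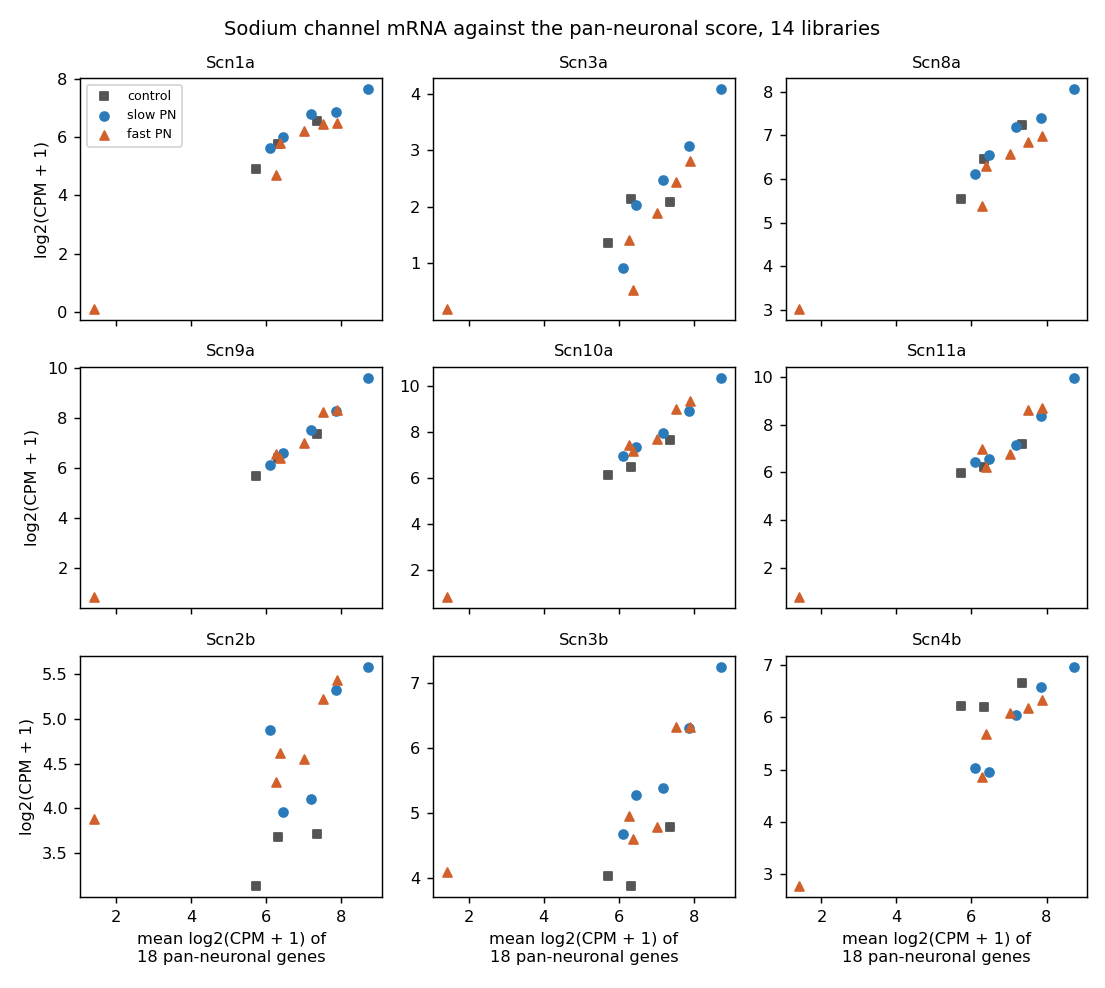
Log2(CPM + 1) of each member (y axes) against the mean log2(CPM + 1) of 18 pan-neuronal genes (x axes) in 14 libraries; squares are controls, circles slow-growing PNs and triangles fast-growing PNs. Library 1191 is the triangle at 1.41 on the x axis. At like scores, controls lie below PNs for Scn2b and Scn3b and above them for Scn4b.

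A fit with the pan-neuronal score as a covariate compared PNs and controls at an equal score. In it 3 of 9 members passed in edgeR for PNs against controls, where 34.4% of all genes tested passed. Scn2b rose by 1.28 on the log2 scale (SE 0.29, adjusted p = 0.00467), Scn3b rose by 1.28 (SE 0.39, adjusted p = 0.0228) and Scn4b fell by 0.91 (SE 0.18, adjusted p = 0.00182). Since 1191 has great weight in such a fit, it was repeated with 1191 left out, which was decided with the data in view. Then 4 of 9 passed, where 31.9% of genes passed: Scn10a rose by 0.63 (SE 0.19, adjusted p = 0.0256), Scn2b by 1.06 (SE 0.27, adjusted p = 0.0109) and Scn3b by 0.75 (SE 0.24, adjusted p = 0.0332), and Scn4b fell by 0.9997 (SE 0.20, adjusted p = 0.00268). The values of the other 5 members in that fit did not pass, from -0.59 for Scn3a to 0.24 for Scn11a.

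The same fit was made in single growth groups. For slow-growing PNs 2 of 9 passed, where 13.1% of genes passed: Scn3b (0.86, SE 0.23, edgeR adjusted p = 0.0494) and Scn4b (-1.08, SE 0.24, adjusted p = 0.0273). For fast-growing PNs 3 of 9 passed, where 39% of genes passed: Scn2b (1.26, SE 0.22, edgeR adjusted p = 0.00206), Scn3b (1.11, SE 0.37, adjusted p = 0.0378) and Scn4b (-0.93, SE 0.19, adjusted p = 0.00411). Without 1191 there were also 3 of 9, where 36.6% passed: Scn2b (1.05, SE 0.20, edgeR adjusted p = 0.00411), Scn10a (0.70, SE 0.23, adjusted p = 0.0402) and Scn4b (-0.87, SE 0.22, adjusted p = 0.0159), and Scn3b did not pass (0.71, SE 0.32, adjusted p = 0.116). With the covariate, fast- against slow-growing PNs again gave 0 of 9, where 2.58% of genes passed, and 0 of 9 without 1191, where 9.34% passed. In that last comparison Scn8a was at -0.47 (SE 0.15, adjusted p = 0.0774) without 1191.

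Library 1191 shows the members with little neuronal RNA. Against the median of the other 10 PNs, its level was 0.33% for Scn10a (95% exact Poisson interval of the count 0.16% to 0.61%, from 10 counts), 0.51% for Scn11a (0.23% to 0.96%, 9 counts) and 0.49% for Scn9a (0.24% to 0.91%, 10 counts). Scn1a was at 0.10% from a single count (0.0024% to 0.53%). Scn8a stood at 6.83% (5.53% to 8.35%) and Scn4b at 8.83% (6.97% to 11.04%).

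In contrast, Scn3b was at 41.2% of that median (35.9% to 47.1%) and Scn2b at 52.6% (45.2% to 60.8%). Intervals cover counting error only, and the values describe 1 library. Of the nociceptor genes, 7 of 11 were under 1 CPM in 1191 and Trpm8 was at 0, whereas Gfra2, the receptor subunit for neurturin, was at 76.6 CPM. The summed level of 6 myelinating SC genes was 6012 CPM in 1191 and 4499 to 8554 CPM in the other fast-growing PNs, and that of 6 nonmyelinating SC genes was 2082 CPM against 1734 to 2362 CPM. Which cells held the Scn2b and Scn3b mRNA of 1191 was not tested.

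The other Scn genes of the table include 2 that passed. Scn7a encodes Nax, a sodium-sensing channel that is not opened by voltage and is known from nonmyelinating SCs. It was at 531, 271 and 233 CPM in controls and at 957 to 2729 CPM in PNs, with 1191 the highest, and rose 5.01-fold (log2 fold change 2.32, SE 0.39, edgeR adjusted p = 0.00063). With the muscle and fat scores as covariates the log2 fold change of Scn7a was 1.22 and did not pass (adjusted p = 0.168). Scn4a encodes Nav1.4 of skeletal muscle. It was at 16.7, 29.2 and 49.2 CPM in controls and at 0.67 to 13.8 CPM in PNs, and fell by 2.77 on the log2 scale (SE 0.76, edgeR adjusted p = 0.0158, and 0.113 without DRG5). With those covariates the value of Scn4a was -0.03 (adjusted p = 0.977). The summed level of the 12 muscle genes was likewise higher in every control than in any PN. Scn2a1, the table's symbol for the Nav1.2 gene, was at 16.5, 9.53 and 8.03 CPM in controls and at 9.87 to 43.8 CPM in PNs (log2 fold change 0.81, SE 0.41, adjusted p = 0.158). In 1191 it was at 13.9 CPM, or 72.5% of the median of the other PNs.

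Of 16 genes whose products bind, anchor or traffic sodium channels or build the node of Ranvier, 4 rose in PNs and 0 fell in edgeR, where 26.3% of all genes passed and 12.9% were higher, with a median log2 fold change of 0.65 against 0.10 over all genes tested. Ank3, the ankyrin G that clusters sodium channels at nodes and axon initial segments, averaged 296 ± 165 CPM over controls against 699 ± 135 CPM over PNs (SD, n = 3 and 11; log2 fold change 1.22, SE 0.28, edgeR adjusted p = 0.00538). Gldn, the gliomedin that SC microvilli use to assemble nodes, was at 53.8 ± 26.2 and 260 ± 113 CPM (2.26, SE 0.51, adjusted p = 0.00544). Fgf11, an intracellular fibroblast growth factor homologue of a family that binds alpha subunits, rose by 0.82 (SE 0.25, adjusted p = 0.0260), and Dpysl2, the collapsin response protein known to regulate Nav1.7 trafficking, rose by 0.88 (SE 0.29, adjusted p = 0.0391). In 1191 these 4 genes were at 669, 404, 24.9 and 294 CPM, and with it left out 4 of the 16 also passed.

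By growth group, 0 of the 16 passed in slow-growing PNs in edgeR (5 at an unadjusted p under 0.05, 4 by DESeq2, 1 by limma-trend), where 11.3% of all genes passed, and 3 in fast-growing PNs, where 31.4% passed. These are edgeR's shares after adjustment, and none was counted at the unadjusted threshold. In slow-growing PNs DESeq2 called 3529 genes in all, against 1769 by edgeR. Gldn was also higher in fast- than in slow-growing PNs, at 349.6 ± 44.1 against 153 ± 58.6 CPM (log2 fold change 1.19, SE 0.25, edgeR adjusted p = 0.0484). Without 1191 that comparison called 0 of the 16, and 2 of all 15359 genes tested. Every fast-growing PN (297 to 404 CPM of Gldn, the highest being 1191) was above every slow-growing PN (70.6 to 214 CPM). Of 15465 genes tested, 2.13% had such groups without overlap and fast-growing PNs higher, and Gldn is 1 of 16 genes looked at here. With all libraries kept, limma-trend also called 0 of the 16 in fast- against slow-growing PNs, and DESeq2 called 1 higher and 1 lower. Over all genes in that comparison edgeR called 196 of 15465, limma-trend 155 of 16382 and DESeq2 1570 of 15427.

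Of 15 genes of calcium channels and of the hyperpolarization-activated HCN channels, 0 passed in PNs against controls in edgeR (1 at an unadjusted p under 0.05, 0 by DESeq2 and by limma-trend), where 26.3% of all genes passed, although 13 of the 15 values were positive, with a median of 0.35. In the comparisons by growth group DESeq2 called 1 of the 15 higher in slow-growing PNs, 1 higher in fast-growing PNs and 1 lower in fast- than in slow-growing PNs, where edgeR called 0 (1 at an unadjusted p under 0.05 in each) and limma-trend 0. Over all genes edgeR called 11.3%, 31.4% and 1.27% in these comparisons. DESeq2 called more: 3529 of 15668 genes in slow-growing PNs, 5868 of 15996 in fast-growing PNs and 1570 of 15427 in fast- against slow-growing PNs. By edgeR these were 1769, 5043 and 196 genes. The lowest p was that of Cacna1h, the T-type channel Cav3.2 of mechanoreceptive and nociceptive neurons, at 11.9 ± 3.58 CPM over controls against 21.6 ± 9.64 CPM in PNs (SD, n = 3 and 11; log2 fold change 0.84, SE 0.37, adjusted p = 0.110). Of the 18 pan-neuronal genes 0 passed (0 at an unadjusted p under 0.05, 0 by DESeq2 and by limma-trend), with 18 positive values and a median of 0.61. Of the 11 nociceptor genes 1 passed, Gfra2, at 53.8 ± 12.2 CPM over controls against 131 ± 61.8 CPM in PNs (1.26, SE 0.39, adjusted p = 0.0267), and it was the highest gene of that list in 1191.

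For each member, the 3 genes with the most similar pattern over the 11 PNs were found by Pearson r of log2(CPM + 1) among 13950 other genes. For Scn10a the first was Pirt, a membrane protein of sensory neurons that modulates TRPV1, at r = 0.999, and it was also first without 1191 at r = 0.998. Pirt was among the first 3 for Scn9a and Scn11a as well, and without 1191 it ranked 32 for Scn9a and 6 for Scn11a. Scn11a was most like Syt1, the calcium sensor of synaptic vesicles, and also had P2rx3, an ATP receptor of nociceptors, among its 3, though at rank 22 without 1191. Scn1a was most like Sv2b, Cntnap2 and Snap25, genes of synaptic vesicles, the juxtaparanode and vesicle fusion, which ranked 3, 14 and 7 without 1191. Scn8a was most like B3galt1, Slc24a2 and Atp8a2, which ranked 7, 5 and 9.

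For the beta subunits the lists differed. Scn3b was most like Ccdc141 and Ebf3, which ranked 20 and 14 without 1191, and Scn4b was most like Galnt13, Edil3 and Lynx1. Scn2b was most like S100a10, Psma1 and 2210013O21Rik, with r of 0.963, 0.950 and 0.947, and S100a10, whose product p11 binds Nav1.8, was also first without 1191 at r = 0.970. Scn3a was most like Bap1, Ebf1 and 5730409E04Rik. Correlations over 11 PNs that include 1191 are dominated by that library for the genes absent from it, and they describe these libraries only.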

How the data were processed

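The data are bulk RNA-seq libraries from 14 mice. The p-values of group comparisons weigh a difference against the spread between these samples, and those of correlations come from permutations. Per the labels and the study's methods, the authors amplified total RNA with Ovation RNA-Seq System v2 and processed the reads with CASAVA 1.4, FastQC 0.11.0, TopHat2 2.0.9 (build mm10), featureCounts 1.5.2 and edgeR 3.16.5. The deposited count table holds whole-number counts per gene, not normalized, and the deposited log2 table holds TMM-normalized CPM on a log2 scale; columns headed by a mouse number were recorded as unit other for the deposited files because the unit check reads such headers as positions. Reads shared by paralogous Scn genes may be split or lost in counting; this was not tested.

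Counts were fitted with edgeR 4.0.16 in R 4.3.3 (filterByExpr, TMM, quasi-likelihood F test, only the groups compared, Benjamini-Hochberg adjustment over all genes, threshold 0.05). The SE of a log2 fold change is its absolute value divided by the square root of F. The script was tested on simulated data. Levels are TMM CPM, or CPM per kb of the longest GENCODE M21 transcript; logs use a pseudocount of 1 CPM. Scores are means of log2(CPM + 1) over a gene list. Of 24062 symbols, 22750 matched the annotation and 935 more matched by an older symbol. The members, lists and tests were chosen with earlier results of these data known. Genes named from the other lists are up to 4 with the lowest p in PNs against controls, and like genes are the 3 with the highest r among tested genes of mean log2 CPM of at least 1; Gfra2, Trpm8 and Scn4a were named after their values were seen. Alternatives were RLE and upper-quartile factors, DESeq2 1.42.0, limma 3.58.1 on the deposited log2 values, no filter, all 14 libraries in 1 fit, a length and GC trend, the muscle and fat or the pan-neuronal scores as covariates, leaving out each library, and an adjusted p under 0.01. Correlations used 100000 permutations, two-sided. Some genes are not reported here.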

Additional observations from a re-analysis of the deposited data

Results flagged for a closer look

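In fast-growing PNs, 1 library lay far from the other 5 for 4 of the 9 members by Dixon's criterion on log2(CPM + 1), and each time it was 1191, the lowest. Its values were 0.81 for Scn10a, 0.75 for Scn11a, 0.11 for Scn1a and 0.81 for Scn9a. Of 28 groups examined (14 Scn genes in slow- and fast-growing PNs) these 4 met the criterion, where chance flags about 1 in 20 groups. The 4 are not independent, since they come from 1 library in which all 18 pan-neuronal genes are also the lowest of the PNs. No slow-growing PN met the criterion for any of the 14 genes, although 1203 was the highest for each of the 9 members.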

How the results depend on the processing

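No paired analysis was possible because the groups share no replicate numbers. The number of members called in PNs against controls was 1 and became 2 with DESeq2, 0 with muscle and fat scores as covariates, 3 with the pan-neuronal score as a covariate (4 with 1191 left out, chosen after seeing the data), 0 at an adjusted p under 0.01, and 0 to 1 when each library was left out. For slow-growing PNs it was 0 and became 3 with DESeq2, 1 with all 14 libraries in the fit, 2 with the pan-neuronal score, and 0 to 1 (1 without 1206) on leaving out a library. For fast-growing PNs it was 1 and became 0 with muscle and fat scores, 3 with the pan-neuronal score (3 with 1191 left out), 0 at an adjusted p under 0.01, and 0 to 1 on leaving out a library. For fast- against slow-growing PNs it stayed 0. Calls over all genes moved as well. For slow-growing PNs they numbered 1769 in the main fit, 3529 with DESeq2, 3280 with all 14 libraries and 2053 with the pan-neuronal score. Without 1206 they were fewer, at 1232. For all PNs against controls they numbered 4283, with 5170 by DESeq2 and 5597 with the pan-neuronal score. For fast-growing PNs they rose from 5043 to 6252 with that score. With muscle and fat scores as covariates 553 genes of the whole table passed in PNs against controls and 0 in each growth group, so little can be called there.

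Of 765 fitted values of members under an alternative, 701 kept their direction and their side of the threshold, 8 lost a call, 17 gained one and 39 changed direction, 0 of these with an adjusted p under 0.05. The log2 fold changes that changed direction were as follows. In PNs against controls, limma-trend gave -0.42 for Scn1a, -0.20 for Scn3a and -0.10 for Scn8a. The length and GC trend gave -0.033 for Scn8a, and the muscle and fat scores gave 0.10 for Scn4b. The pan-neuronal score gave -0.30 for Scn1a, -0.28 for Scn3a and -0.14 for Scn8a, and -0.046, -0.59 and -0.22 with 1191 left out. In slow-growing PNs the pan-neuronal score gave -0.21 for Scn3a and -0.020 for Scn8a. In fast-growing PNs limma-trend gave -0.54 for Scn9a, -0.12 for Scn10a and -0.43 for Scn11a, and the muscle and fat scores gave 0.16 for Scn1a and 2.79 for Scn3a. In fast- against slow-growing PNs the pan-neuronal score gave 0.0081 for Scn9a, 0.16 for Scn10a, 0.15 for Scn11a, 0.12 for Scn2b and 0.11 for Scn4b, and with 1191 left out 0.14 for Scn10a, 0.13 for Scn11a, 0.095 for Scn2b and 0.10 for Scn4b.

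Leaving out each library in turn, the value ran from -0.14 to 0.71 for Scn8a in PNs. In fast-growing PNs it ran from -0.45 to 0.30 for Scn1a, -0.64 to 0.12 for Scn8a and -0.60 to 0.11 for Scn3a. In fast- against slow-growing PNs it ran from -1.105 to 0.15 for Scn10a, -1.19 to 0.18 for Scn11a and -0.31 to 0.088 for Scn2b. The cause of these changes was not tested. Only 3 controls limit every comparison with them. Scn3a rests on 2 to 173 counts a library, the fewest of the members in 13 of 14 libraries.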
